A study of Arabidopsis thaliana with 12 samples.

Results

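Sucrose in the growth medium was accompanied by a low transcript level of a set of 86 Arabidopsis genes in both the acn1-2 line and Col-7. The set was defined by its values. A probe set (the group of probes that reports 1 transcript) was taken when it named exactly 1 gene, when its lowest intensity over the 6 untreated arrays was at least 50, and when that value was at least 2.5 times its highest intensity over the 6 sucrose arrays. Of 182 probe sets past both thresholds, 91 named no gene, 1 named several and 2 belonged to loci left out beforehand, AT1G23390 and AT3G15450; the remaining 88 reported 86 of the 13286 genes that the arrays report by name. Organelle genes and genes with symbols beginning CYP, MYB, WRKY, UGT or GST were not taken either. The direction and size of the sucrose difference in these genes are therefore a description, and no test of it is given.

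RNA came from whole seedlings on 12 single-colour Affymetrix ATH1 arrays, in 4 groups of 3. The groups were acn1-2 with 100 mM sucrose, Col-7 with 100 mM sucrose, acn1-2 untreated and Col-7 untreated. Both lines have the Col-7 background, and acn1-2 carries a T-DNA insertion in AT3G16910, the gene of the acetate-activating enzyme ACN1, whose own transcript was not analysed here. The medium of all groups was MS agar at pH 5.7, with the growth room at 20 °C in constant light. All groups were stratified at 4 °C for 4 days, and the labels give growth stage 0.7 for every array. Pools of 1000 seedlings were taken, so each array averages many plants. The mutant is a single insertion line. The labels do not state that replicates came from separate cultures, so the p-values refer to the scatter among these arrays alone, part of which may be technical.

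Plants sense sugar as a signal of their energy status. When carbon is scarce the kinase SnRK1 is active and genes for remobilisation, autophagy and photosynthetic carbon gain are expressed, and when sugar is plentiful SnRK1 is restrained and many of these genes are repressed. Photosynthetic genes were among the first for which such sugar repression was described, and a seedling on sucrose medium is a classical setting for it. No sequence of these genes was at hand, so the accounts below rest on names, known roles and intensities. The annotation named 75 of the 86 genes by locus alone and 11 by a symbol. The roles given for loci are general knowledge, and 27 genes are left without one.

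Array medians ran from 41.0 to 47.2 on the authors' common scale. Replicate 3 of Col-7 with sucrose and replicate 3 of untreated acn1-2 differed most from their companions, and the fit with array weights gave them weights of 0.327 and 0.250. The ratio of the 3' to the 5' actin control probe set, a measure of how intact the RNA and its copy were, was 5.32 to 6.38 in acn1-2 with sucrose, 5.96 to 6.93 in Col-7 with sucrose, 1.81 to 2.91 in acn1-2 untreated and 2.30 to 3.42 in Col-7 untreated. This ratio was higher on every sucrose array than on every untreated array, so in this design it cannot be told apart from the medium. Its part in the sucrose differences was not tested. Of 6 tissue markers looked for, the annotation named 2, and both were bright in every group. RCA, the Rubisco activase of green tissue, averaged 1864 in acn1-2 and 1889 in Col-7 with sucrose, and 3439 in acn1-2 and 3133 in Col-7 untreated. PYK10, a beta-glucosidase of roots and hypocotyls, averaged 2639 and 2418 with sucrose and 2970 and 2851 untreated, in the same order of lines. In whole seedlings, fewer cells of a type and less RNA per cell cannot be told apart.

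The typical gene of the set kept only a minor part of its untreated level on sucrose. With values under 14.4 raised to that floor, the median gene stood at 20.2% of its untreated level in acn1-2 and at 21.4% in Col-7, and the range was 2.88-fold to 41.0-fold lower in acn1-2 and 2.96-fold to 36.2-fold lower in Col-7. With sucrose the group means had medians of 66.3 in acn1-2 and 71.3 in Col-7. Untreated they had medians of 374 in acn1-2 and 350 in Col-7, and 5 probe sets exceeded 1000. The lowest untreated value was 3.23 times the highest sucrose value at the median, at least 5 times in 14 probe sets and under 3 times in 38. No sucrose array was at the floor for 76 of the 88 probe sets. All 3 sucrose arrays were there for 4 probe sets in acn1-2 and for 2 in Col-7. Some but not all of them were there for 6 others in acn1-2 and 9 in Col-7. Folds with any sucrose array at the floor are lower bounds, and the largest fold in each line is among them.

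**Figure D1:**
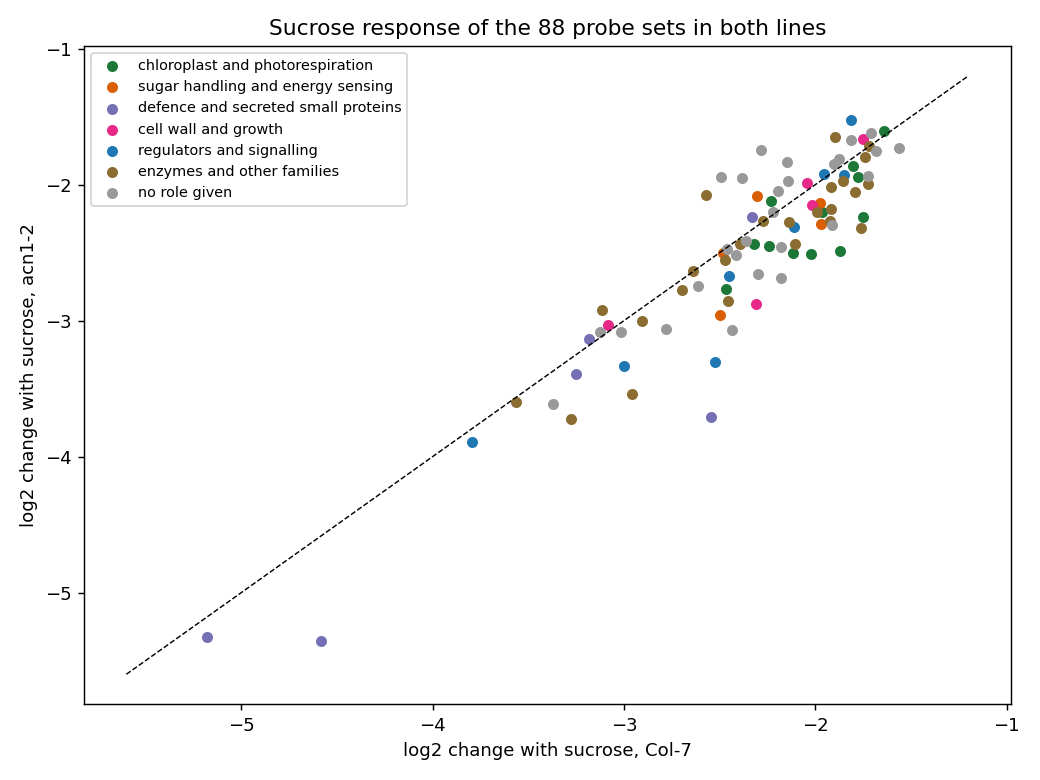
Each point is 1 of the 88 probe sets, with its log2 change with sucrose in Col-7 on the horizontal axis and in acn1-2 on the vertical axis, coloured by functional group; the dashed line marks equal change. The points lie along that line, with Pearson's r of the log2 folds of 0.914, and 60 lie on the side of a larger fold in acn1-2.

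Across the 88 probe sets the log2 folds of the lines correlated with a Pearson's r of 0.914, a description over genes chosen to be low in both. The fold was larger in acn1-2 for 60 and in Col-7 for 28. At the edge of the ratio threshold, AT4G01330 (2.505), AT4G25170 (2.513) and AT1G12250 (2.515) lay just inside, while AT4G18740, AT5G03120 and AT4G19530 lay just outside at 2.497, 2.492 and 2.49. At the edge of the intensity threshold, AT1G69523, AT4G37560 and AT3G01490 had lowest untreated values of 50.6, 52.4 and 58.7, while AT2G36690, AT1G70985 and AT2G25735 had 44.6, 41.3 and 34.8. The genes were spread over the chromosomes. Chromosomes 1 to 5 held 24, 13, 19, 8 and 22 of them, which is 27.9%, 15.1%, 22.1%, 9.30% and 25.6%, beside 25.8%, 16.4%, 20.6%, 14.6% and 22.6% of all genes named on the array. Only AT5G61590 and AT5G61670 lay within 10 genes of each other, with 8 genes between them.

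Small secreted and defence-related proteins held the deepest differences of the functional groups, with median folds of 11.8 in acn1-2 and 9.30 in Col-7 over 6 genes. AT2G05540 encodes a glycine-rich protein, a family that includes cell wall and secreted proteins. Its intensity was 16.6, 28.5 and 21.2 with sucrose in acn1-2, against 912, 831 and 848 untreated, and 40.5, 30.1 and 10.7 with sucrose in Col-7, against 984, 1029 and 823 untreated. It was 40.0-fold lower with sucrose in acn1-2 and 36.2-fold lower in Col-7, and only Col-7 sucrose replicate 3 was at the floor. AT1G66100 encodes a thionin, a small cysteine-rich antimicrobial peptide. Its intensity was 17.5, 10.7 and 11.4 with sucrose in acn1-2, against 592, 629.7 and 670.4 untreated, and 26.2, 24.9 and 6.8 with sucrose in Col-7, against 472, 558 and 489 untreated. Of its sucrose arrays 2 in acn1-2 and 1 in Col-7 were at the floor, and with those raised it was 41.0-fold lower with sucrose in acn1-2 and 23.9-fold lower in Col-7. THI2.2, another thionin (AT5G36910), was bright without sucrose and stayed well above the floor on it. It had 142, 116 and 138 with sucrose in acn1-2, against 1216, 1071 and 1184 untreated, and 146, 133 and 87.3 with sucrose in Col-7, against 1235, 1184 and 868 untreated, and was 8.80-fold lower with sucrose in acn1-2 and 9.07-fold lower in Col-7.

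AT3G22060, a cysteine-rich secreted protein related to receptor-like kinases, had 1.5, 1.9 and 15.8 with sucrose in acn1-2, against 154, 145 and 169 untreated, and 14.9, 19.6 and 10.7 with sucrose in Col-7, against 144, 160 and 158 untreated. It was near or under the floor on every sucrose array. AT1G62510, of the lipid-transfer protein family of secreted lipid-binding proteins, had 43.6, 48.5 and 52.5 with sucrose in acn1-2, against 614, 575 and 699 untreated, and 72.9, 79.3 and 112 with sucrose in Col-7, against 490.2, 466 and 564 untreated. The sucrose arrays of the lines did not overlap, and it was 13.0-fold lower with sucrose in acn1-2 and 5.83-fold lower in Col-7, which is taken up with the line differences. AT5G64110, a class III peroxidase of the kind secreted to the wall, had 30.1, 26.2 and 23.9 with sucrose in acn1-2, against 123, 126 and 128 untreated, and 23.8, 24.1 and 29.2 with sucrose in Col-7, against 153, 131 and 107 untreated. It had the smallest fold of this group in both lines, 4.72 in acn1-2 and 5.03 in Col-7.

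**Figure D2:**
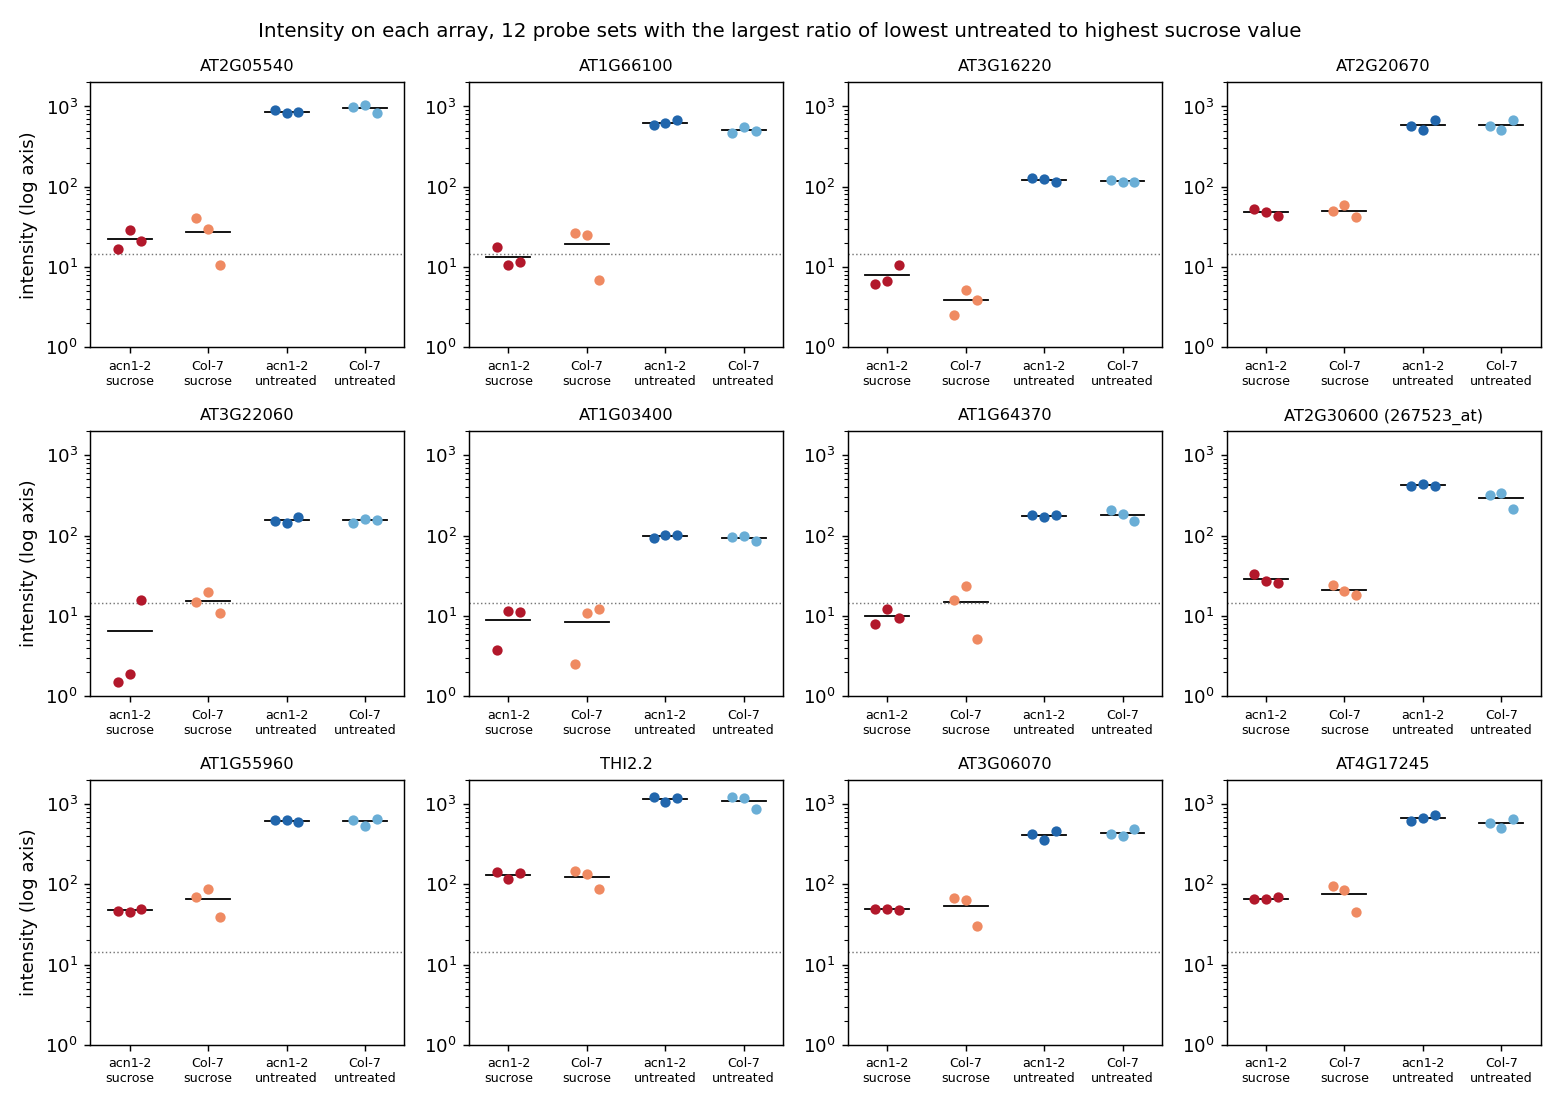
Intensity on a log axis on each array for the 12 probe sets with the largest ratio of lowest untreated to highest sucrose value; points are the 3 replicates of a group in order 1 to 3 from left to right, bars are means, and the dotted line is the floor of 14.4. In each panel all 6 sucrose arrays lie below all 6 untreated arrays, as the rule demands, and the sucrose arrays of AT3G16220 and AT1G03400 all lie under the floor.

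Sugar transport, sucrose synthesis and energy sensing contributed 5 genes with median folds of 4.88 in acn1-2 and 4.94 in Col-7. SWEET11 (AT3G48740) exports sucrose from leaf cells for phloem loading. Its intensity was 172, 158 and 175 with sucrose in acn1-2, against 806, 805 and 852 untreated, and 205, 209.6 and 149 with sucrose in Col-7, against 734, 758 and 686 untreated. SWEET2 (AT3G14770), a sugar transporter of the vacuole, had 68.2, 70.7 and 67.6 with sucrose in acn1-2, against 369.6, 376 and 425 untreated, and 71.5, 73.0 and 45.8 with sucrose in Col-7, against 330.3, 345 and 366 untreated. Both transporters kept a clear signal on sucrose, at 4.88-fold and 5.66-fold lower in acn1-2 and 3.91-fold and 5.58-fold lower in Col-7. ATSPS4F (AT4G10120) is a sucrose-phosphate synthase, the enzyme that commits hexose phosphates to sucrose. It had 17.5, 16.7 and 14.8 with sucrose in acn1-2, against 135, 125 and 119.8 untreated, and 27.5, 26.4 and 8.1 with sucrose in Col-7, against 107, 121 and 147 untreated, and was 7.76-fold lower with sucrose in acn1-2 and 5.65-fold lower in Col-7.

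AKINBETA1 (AT5G21170) is a regulatory beta subunit of the SnRK1 kinase. It had 79.9, 79.4 and 77.8 with sucrose in acn1-2, against 337, 310 and 402 untreated, and 91.6, 79.4 and 73.1 with sucrose in Col-7, against 311, 319 and 324 untreated, and was 4.40-fold lower with sucrose in acn1-2 and 3.93-fold lower in Col-7. Its sucrose arrays overlapped between the lines. ATG8E (AT2G45170), a ubiquitin-like protein that is bound to the autophagosome membrane, had 127, 123 and 124 with sucrose in acn1-2, against 555, 500.1 and 524 untreated, and 140, 121 and 79.7 with sucrose in Col-7, against 582, 563 and 499.9 untreated. Its fold was 4.23 in acn1-2 and 4.94 in Col-7, and Col-7 sucrose replicate 3 was the lowest of its 12 arrays.

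Chloroplast and photorespiration genes formed a group of 11 genes on 12 probe sets, with median folds of 5.07 in acn1-2 and 3.98 in Col-7. Photorespiration recovers carbon from the phosphoglycolate that Rubisco forms when it uses oxygen. LrgB (AT1G32080) is the plastid envelope carrier that exchanges glycolate and glycerate in that cycle. It had 236, 268 and 277 with sucrose in acn1-2, against 1383, 1321 and 1691 untreated, and 385, 379 and 184 with sucrose in Col-7, against 1020, 1071 and 1208 untreated. AT1G80380 encodes glycerate kinase, which returns the cycle's glycerate to the Calvin cycle. It had 179.5, 176 and 169.8 with sucrose in acn1-2, against 838, 709 and 953 untreated, and 226, 221 and 169 with sucrose in Col-7, against 712, 642 and 705 untreated. These consecutive steps were 5.61-fold and 4.72-fold lower with sucrose in acn1-2, and 3.66-fold and 3.37-fold lower in Col-7. AT3G48420 encodes a phosphatase that removes xylulose bisphosphate, a by-product that inhibits Rubisco. It had 157, 133 and 129.7 with sucrose in acn1-2, against 789.8, 682 and 796 untreated, and 207, 156 and 76.3 with sucrose in Col-7, against 676, 671 and 676 untreated.

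Thylakoid proteins followed with similar folds. AT5G02160, a thylakoid protein that interacts with the FtsH5 protease, was the brightest of them. It had 192, 210.2 and 206 with sucrose in acn1-2, against 1399, 1175 and 1594 untreated, and 270.3, 296 and 154 with sucrose in Col-7, against 1318, 1246 and 1262 untreated, and was 6.81-fold lower with sucrose in acn1-2 and 5.52-fold lower in Col-7. TAPX (AT1G77490), the thylakoid ascorbate peroxidase that removes hydrogen peroxide, had 111, 109 and 105 with sucrose in acn1-2, against 601, 587 and 655 untreated, and 117, 125 and 77.6 with sucrose in Col-7, against 481, 447 and 434 untreated. NdhL (AT1G70760), a subunit of the NDH complex of cyclic electron flow, had 147, 141 and 162 with sucrose in acn1-2, against 718, 557 and 811 untreated, and 189.9, 179.8 and 97.7 with sucrose in Col-7, against 581, 608 and 560.4 untreated. The NDH-associated protein AT2G04039 was 3.65-fold lower with sucrose in acn1-2 and 3.49-fold lower in Col-7, against 4.59-fold and 3.90-fold for NdhL. The plastid adenylate kinase family gene AT5G35170 had 43.2, 43.4 and 45.7 with sucrose in acn1-2, against 234, 279.8 and 241 untreated, and 68.8, 63.9 and 30.6 with sucrose in Col-7, against 203, 214 and 208 untreated. Its first 2 Col-7 sucrose arrays lay above all acn1-2 sucrose arrays and the third below them. AT1G51110, a fibrillin-family protein of plastid lipid bodies, was read by 2 probe sets that share the gene, and their folds were 5.47 and 4.35 in acn1-2 and 4.72 and 4.70 in Col-7. AT1G12250, a pentapeptide-repeat protein of the thylakoid lumen, was 3.85-fold lower with sucrose in acn1-2 and 3.42-fold lower in Col-7. The smallest folds of the group were those of AT5G61670, of the ORANGE family that promotes carotenoid formation in plastids, which was 3.05-fold lower with sucrose in acn1-2 and 3.12-fold lower in Col-7.

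Regulators and signalling proteins were 7 genes on 8 probe sets, with median folds of 5.68 in acn1-2 and 4.90 in Col-7. AT2G30600, a BTB/POZ domain protein of a kind that serves as adaptor of ubiquitin ligases, had the largest fold in both lines. Its brighter probe set had 33.2, 26.9 and 25.4 with sucrose in acn1-2, against 410.3, 436 and 417 untreated, and 24.0, 20.6 and 18.0 with sucrose in Col-7, against 320.4, 343 and 216 untreated, and was 14.9-fold lower with sucrose in acn1-2 and 13.9-fold lower in Col-7. Its second probe set was 9.88-fold lower with sucrose in acn1-2 and 5.76-fold lower in Col-7. AT4G17245, a RING-type protein, had 65.6, 65.2 and 68.8 with sucrose in acn1-2, against 610.1, 669 and 741 untreated, and 96.6, 85.1 and 45.1 with sucrose in Col-7, against 582, 502 and 648 untreated. AT5G61590, the ERF transcription factor DEWAX that represses cuticular wax genes, had 92.8, 77.8 and 81.1 with sucrose in acn1-2, against 537, 542 and 523 untreated, and 94.2, 98.8 and 90.6 with sucrose in Col-7, against 532, 518 and 503 untreated. It was 6.38-fold lower with sucrose in acn1-2 and 5.48-fold lower in Col-7, with little spread within any group. The RING-type ATL family gene AT5G47610 was 3.79-fold lower with sucrose in acn1-2 and 3.88-fold lower in Col-7. The kinase gene AT3G01490 was at least 4.97-fold lower in acn1-2, where all its sucrose values were at the floor, against 4.32-fold in Col-7 with 1 array at the floor. Another kinase gene, AT4G01330, and the leucine-rich repeat gene AT1G33600 were 2.88-fold and 3.80-fold lower in acn1-2 and 3.51-fold and 3.60-fold lower in Col-7.

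Cell wall and growth genes numbered 5, with median folds of 4.44 in acn1-2 and 4.12 in Col-7. AT1G22690, of the gibberellin-regulated GASA peptide family, had 95.6, 80.9 and 80.8 with sucrose in acn1-2, against 734, 632 and 739 untreated, and 105, 121 and 26.4 with sucrose in Col-7, against 680.3, 651 and 459.6 untreated. It was 8.19-fold lower with sucrose in acn1-2 and 8.47-fold lower in Col-7, and the third Col-7 sucrose array lay far under the other 2. EXPA8 (AT2G40610), an alpha-expansin that loosens walls during growth, had 71.4, 95.1 and 106 with sucrose in acn1-2, against 658, 612 and 707 untreated, and 146, 156 and 80.2 with sucrose in Col-7, against 609, 628 and 580.2 untreated. Here too acn1-2 with sucrose lay below the first 2 Col-7 sucrose arrays and overlapped the third. TBL45 (AT2G30010), of the family that acetylates wall polysaccharides, had 248, 278 and 238 with sucrose in acn1-2, against 864, 831 and 729 untreated, and 255, 256 and 182 with sucrose in Col-7, against 776, 803 and 729 untreated. The BIG GRAIN 1-like genes AT1G69160 and AT5G12050, related to a rice gene that promotes auxin-dependent growth, were 4.44-fold and 3.97-fold lower in acn1-2 and 4.05-fold and 4.12-fold lower in Col-7.

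Enzymes and members of other protein families made up 25 genes, with median folds of 4.83 in acn1-2 and 4.40 in Col-7. AT2G20670, of the DUF506 family, had 52.1, 48.0 and 43.2 with sucrose in acn1-2, against 565, 508 and 669 untreated, and 50.0, 58.6 and 41.5 with sucrose in Col-7, against 577, 514 and 679 untreated. It was 12.1-fold lower with sucrose in acn1-2 and 11.8-fold lower in Col-7, while its relative AT3G07350 was 3.99-fold and 3.31-fold lower. AT1G55960, of the polyketide cyclase and lipid transport superfamily, had 46.0, 45.8 and 49.9 with sucrose in acn1-2, against 632, 634 and 606 untreated, and 70.2, 88.4 and 39.5 with sucrose in Col-7, against 639, 539 and 651 untreated. AT1G23130 of the same superfamily had 35.8, 29.0 and 28.3 with sucrose in acn1-2, against 352, 332 and 394 untreated, and 44.3, 38.1 and 25.3 with sucrose in Col-7, against 281, 339 and 209 untreated. These relatives were 13.2-fold and 11.6-fold lower in acn1-2 and 9.70-fold and 7.76-fold lower in Col-7. The 2-oxoglutarate-dependent oxygenase AT1G03400 had 3.7, 11.3 and 11.2 with sucrose in acn1-2, against 92.5, 102 and 101 untreated, and 2.5, 10.7 and 12.2 with sucrose in Col-7, against 95.7, 99.7 and 85.3 untreated. All 6 of its sucrose values were at the floor, so it was at least 6.84-fold lower in acn1-2 and at least 6.48-fold lower in Col-7. A second oxygenase of that family, AT5G43450, had 9.9, 14.9 and 12.1 with sucrose in acn1-2, against 119, 103 and 95.1 untreated, and 28.8, 26.3 and 10.2 with sucrose in Col-7, against 134, 146 and 92.9 untreated. It stood at the floor on 2 acn1-2 sucrose arrays and on the third Col-7 sucrose array.

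AT5G19120, an aspartyl protease family protein, had 67.0, 76.3 and 73.0 with sucrose in acn1-2, against 582, 659 and 505 untreated, and 97.7, 97.1 and 87.2 with sucrose in Col-7, against 611, 643 and 887 untreated, and was 8.03-fold lower with sucrose in acn1-2 and 7.50-fold lower in Col-7. The alpha/beta hydrolase AT1G52510 had 44.0, 44.4 and 35.6 with sucrose in acn1-2, against 364, 361 and 229.9 untreated, and 48.8, 41.1 and 16.9 with sucrose in Col-7, against 308, 259 and 274 untreated. Other hydrolases were AT4G12830 (4.15-fold in acn1-2 and 3.46-fold in Col-7), AT1G18460 (4.81-fold in acn1-2 and 3.79-fold in Col-7) and AT3G50790 (3.28-fold in acn1-2 and 3.29-fold in Col-7). AT2G29290, a Rossmann-fold oxidoreductase, and AT2G32150, a haloacid dehalogenase-like hydrolase, were 6.20-fold and 5.88-fold lower in acn1-2 and 6.24-fold and 5.55-fold lower in Col-7. The major facilitator family transporter AT5G14120 was among the brightest of the set and had 283, 278 and 252 with sucrose in acn1-2, against 1558, 1326 and 1524 untreated, and 294, 286 and 251 with sucrose in Col-7, against 1294, 1235 and 1059.7 untreated. Redox-related genes were the glutaredoxin AT5G18600 (4.22-fold in acn1-2 and 5.93-fold in Col-7) and the thiol-disulfide oxidoreductase AT5G50100 (4.04-fold in acn1-2 and 3.77-fold in Col-7). The remaining enzymes were a PLC-like phosphodiesterase, AT4G38690 (4.83-fold in acn1-2 and 4.40-fold in Col-7); a glyoxalase I family protein, AT5G57040 (5.42-fold in acn1-2 and 5.26-fold in Col-7); a cytochrome P450 named by locus only, AT3G44970 (4.81-fold in acn1-2 and 4.84-fold in Col-7); a DNA glycosylase, AT5G44680 (4.99-fold in acn1-2 and 3.39-fold in Col-7); and a glucose-methanol-choline oxidoreductase, AT3G56060 (4.53-fold in acn1-2 and 3.77-fold in Col-7). The lowest-signal ones were AT4G37560 (3.48-fold in acn1-2 and 3.34-fold in Col-7), of the acetamidase family, and the methyltransferase AT1G69523 (3.14-fold in acn1-2 and 3.72-fold in Col-7). AT1G52870, of a peroxisomal membrane protein family, and the Rossmann-fold protein AT3G50560 were 4.59-fold and 3.92-fold lower in acn1-2 and 3.97-fold and 3.62-fold lower in Col-7.

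Genes without a role given numbered 27, with median folds of 4.60 in acn1-2 and 4.67 in Col-7. AT3G16220 had 6.2, 6.7 and 10.6 with sucrose in acn1-2, against 128, 125 and 113 untreated, and 2.5, 5.1 and 3.9 with sucrose in Col-7, against 122, 113 and 115 untreated. All 6 sucrose values were at the floor, so it was at least 8.47-fold lower in acn1-2 and at least 8.09-fold lower in Col-7. AT1G64370 had 7.9, 12.2 and 9.3 with sucrose in acn1-2, against 181, 169 and 179 untreated, and 15.8, 23.2 and 5.2 with sucrose in Col-7, against 209.5, 185 and 151 untreated. It was at least 12.2-fold lower in acn1-2, where all 3 arrays were at the floor, and 10.4-fold lower in Col-7, where 1 was. AT3G06070 had 49.5, 50.0 and 47.4 with sucrose in acn1-2, against 428, 362 and 458 untreated, and 67.1, 63.1 and 29.9 with sucrose in Col-7, against 426, 405 and 489 untreated. AT1G65230 had 88.4, 109.8 and 83.5 with sucrose in acn1-2, against 844, 759 and 740 untreated, and 155, 152 and 49.7 with sucrose in Col-7, against 769.5, 701 and 704 untreated. In AT3G06070 and AT1G65230 the acn1-2 sucrose arrays lay between the third Col-7 sucrose array and the other 2. AT4G33666 and AT2G46735 were 6.70-fold and 5.54-fold lower in acn1-2 and 6.13-fold and 5.50-fold lower in Col-7. The other 21 were AT5G48790, AT5G40450, AT5G35970, AT3G19800, AT3G15630, AT2G25510, AT3G15760, AT1G75460, AT5G62280, AT1G49500, AT2G15960, AT1G54740, AT3G61080, AT3G01060, AT5G13770, AT3G56290, AT1G18060, AT3G05900, AT2G21185, AT5G01740 and AT4G25170, with folds of 3.08 to 8.38 in acn1-2 and 2.96 to 5.64 in Col-7.

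Other genes of the pathways were read from 14 lists of 192 loci, of which the annotation named 37 on tested probe sets and 6 belonged to the set. Of all tested probe sets, 29.6% were called lower (limma, adjusted p under 0.05) with sucrose in acn1-2 and 24.3% in Col-7, and 27.4% and 25.9% were called higher, so single calls are common here. All 6 other nuclear photosynthesis genes measured, of 32 listed, fell in both lines, with median log2 changes of -0.96 in acn1-2 and -0.87 in Col-7. They included PRK, the phosphoribulokinase of the Calvin cycle (-1.49 in acn1-2 and -1.26 in Col-7), and the antenna gene LHCB4.1 (-0.89 and -0.82). Both other photorespiration genes fell, and the peroxisomal hydroxypyruvate reductase HPR changed by -1.75 in acn1-2 and -1.55 in Col-7. HPR makes the glycerate that glycerate kinase uses, and the kinase gene stood at -2.24 in acn1-2 and -1.75 in Col-7.

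ATG8E was chosen by its values, and the rest of the autophagy list was mixed. Of the 9 other measured autophagy genes, 4 were called lower and 1 higher with sucrose in acn1-2, and 7 lower and 0 higher in Col-7 by limma, with median log2 changes of -0.18 and -0.35, against -2.08 and -2.31 for ATG8E. ATG8D was the gene called in opposite directions, at 0.34 in acn1-2 and -0.28 in Col-7, though its line difference in response, 0.62, was not called (limma adjusted p 0.213). Of the amino acid breakdown genes, MCCA, which encodes part of a carboxylase that degrades leucine, fell with log2 changes of -1.80 in acn1-2 and -2.20 in Col-7. Of 9 loci on that list 3 were measured, with 2 of 3 called lower in acn1-2, against 3 of 3 in Col-7. Both starch breakdown genes measured, of 15 listed, rose in both lines. DPE1, a plastid glucanotransferase, rose by 1.22 in acn1-2 and 1.15 in Col-7 on the log2 scale, and PWD, which phosphorylates starch granules, by 0.88 and 1.01. Only 3 of 24 DIN and SnRK1 list loci were measured, AKINBETA1 of the set among them. The response of the rest of that list is therefore not known here. Neither of the other measured genes was called in acn1-2 or Col-7. Limma adjusted p was 0.296 and 0.0732 for the transcription factor gene BZIP53, and 0.248 and 0.153 for AT4G16360, another SnRK1 beta subunit. Both sucrose comparisons of AKINBETA1's sister gene AT4G16360 were slightly positive, at 0.18 in acn1-2 and 0.23 in Col-7. SWEET1 was called lower in both lines, GI lower in acn1-2, LCR67 higher in acn1-2 and BCAT4 higher in both. Chlorophyll synthesis was split, with CHLM called lower and PORB called higher in both lines, and no aquaporin or nitrogen assimilation gene was measured under its name.

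Whether the lines differ in how far these genes respond was tested as the log2 change with sucrose in acn1-2 minus the change in Col-7, by limma over all 13764 tested probe sets with Benjamini-Hochberg adjustment. The rule took only genes low with sucrose in both lines, so genes that respond in only acn1-2 or only Col-7 could not enter. This limits how far responses could differ within the set. None of the 88 probe sets was called (0 of 88, with 0.0581% of all tested probe sets called in either direction). At an unadjusted p under 0.05, 2 were higher and 6 lower, against 4.66% and 5.37% of all tested. The median difference was -0.11 on the log2 scale, beside -0.02 over all tested probe sets, and 60 of 88 differences were below 0, against 53.7% of all tested. The 95% interval of the difference stayed within 1 log2 unit of 0 for 67 of the 88 probe sets and reached past it for 21. On floored values a 2-fold difference in response is thus outside the interval for most of them and not for the others. Where sucrose arrays were at the floor, the interval can be too narrow. AT3G16220 and AT1G03400 had every sucrose value at the floor. Their intervals, -0.33 to 0.20 and -0.36 to 0.20, therefore set no bound on a line difference in response.

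Without sucrose, 0 of 88 were called between acn1-2 and Col-7 by limma (0.545% of all tested were called), and at an unadjusted p under 0.05 there were 6 higher and 0 lower, against 7.83% and 6.58% of all tested. In acn1-2 62 of the 88 were higher, with a median log2 difference of 0.10, beside 55.5% of all tested probe sets and their median of 0.03. The 6 were both probe sets of AT2G30600, TAPX, AT5G40450, AT5G14120 and AT5G35970. The difference of AT2G30600 was 0.55 (SE 0.17, limma adjusted p 0.187) on its brighter probe set and 0.53 (SE 0.21, adjusted p 0.281) on the other. TAPX differed by 0.44 (SE 0.15, limma adjusted p 0.231). With sucrose, 1 of 88 was called, lower in acn1-2 (0.211% of all tested were called, 0 of them higher and 29 lower), and at an unadjusted p under 0.05 there were 2 higher and 6 lower, against 2.22% and 2.56%. The median was -0.03, beside 0.00, with 36 probe sets above 0 and 50 below, against 49.8% of all tested below.

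**Figure D3:**
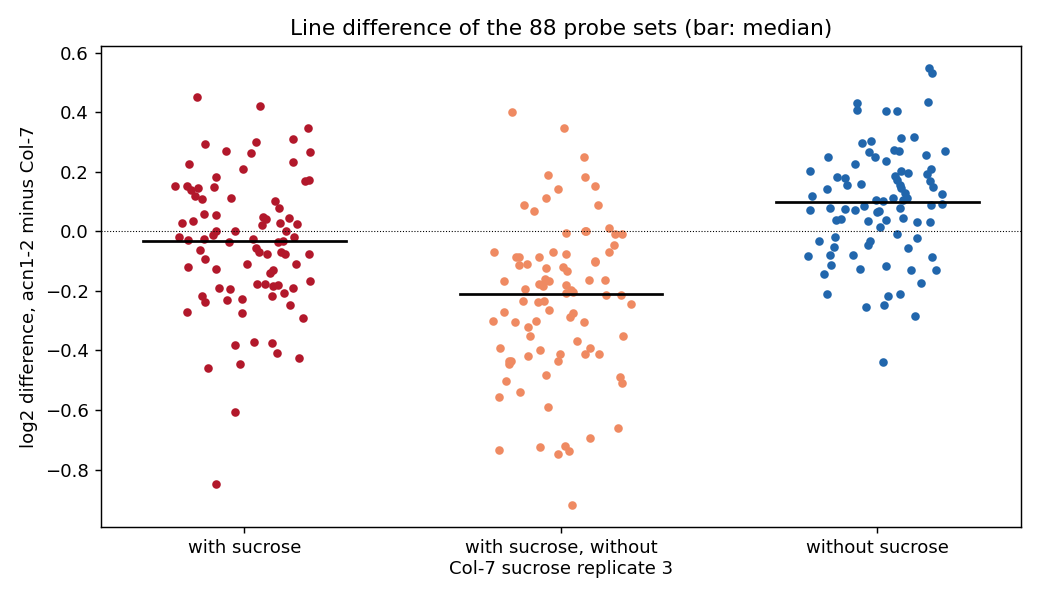
Each point is 1 of the 88 probe sets and the vertical axis is its log2 difference, acn1-2 minus Col-7, with sucrose on all arrays, with sucrose when Col-7 sucrose replicate 3 is left out, and without sucrose; bars are medians. The medians are -0.03, -0.21 and 0.10.

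The comparison of the lines on sucrose depended on Col-7 sucrose replicate 3. That array was the lowest array of its group for 77 of the 88 probe sets (87.5%), against 41.8% of all tested, and lay 0.52 log2 units below the mean of the other 2 arrays at the median, against 0.01 below over all tested. It was lowest for 12 of 12 chloroplast probe sets (median -0.79), 5 of 5 cell wall (-0.91), 5 of 5 sugar handling (-0.66), 8 of 8 regulator probe sets (-0.45), for 4 of 6 in the secreted and defence group (-0.46), for 22 of 25 among enzymes and other families (-0.38) and for 21 of 27 without a role given (-0.52). AT1G22690 deviated by -2.09 and AT1G65230 by -1.63, while AT1G62510 deviated by 0.56 in the other direction. The rule limits the highest sucrose array, not the lowest, so these values are a description. Among 905 other probe sets called at least 2-fold lower with sucrose on the acn1-2 arrays, the same array was lowest for 81.9%, with a median of -0.39, and among 785 called at least 2-fold higher it was lowest for 18.3%, with a median of 0.20. The array thus lay further from the untreated level than its 2 companions in both sets. The cause was not tested.

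**Figure D4:**
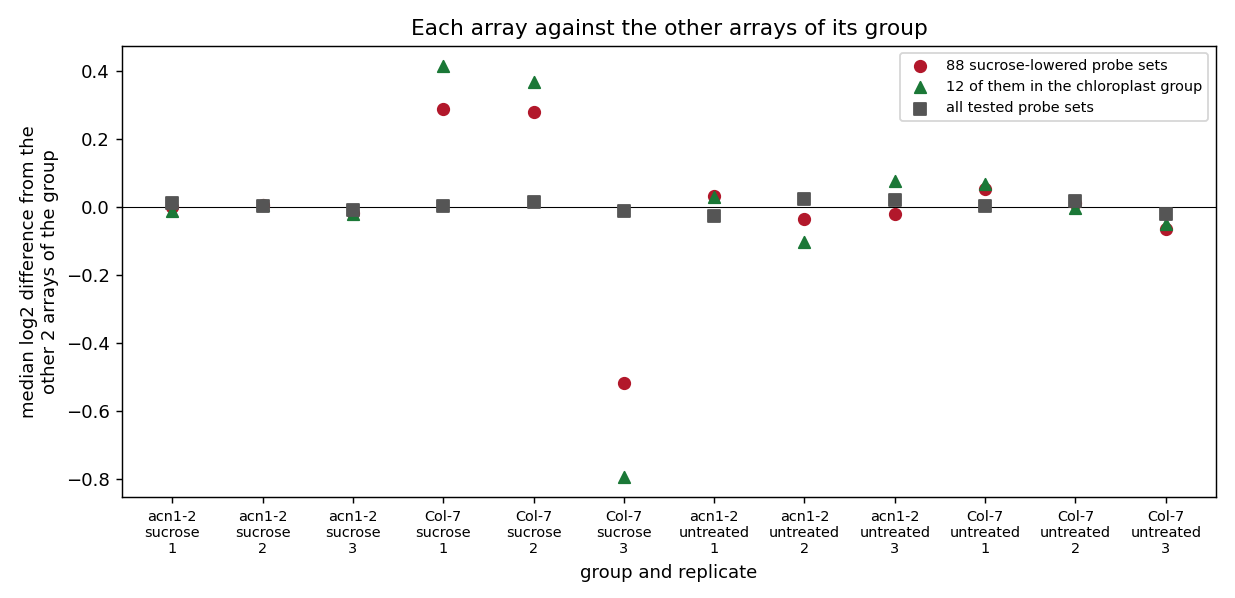
Median log2 difference of each array from the mean of the other 2 arrays of its group, for the 88 sucrose-lowered probe sets, the 12 of them in the chloroplast and photorespiration group and all tested probe sets. Col-7 sucrose replicate 3 lies at -0.52 for the 88 and at -0.79 for the chloroplast group, while all tested probe sets stay near 0.

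Without that array, 74 of the 88 probe sets were lower in acn1-2 than in Col-7 on sucrose, with a median of -0.21, beside 51.2% of all tested, and 78 had a response further down in acn1-2, with a median of -0.28, beside 54.7%. Leaving the array out raises the Col-7 mean wherever it was the lowest, as for 77 of the 88 probe sets. The shares therefore partly restate its shift, and 2 Col-7 sucrose arrays remain. In the fit without that array 4 were called on sucrose by limma, all lower in acn1-2 (0.312% of all tested were called), and 2 in the difference of responses (0.138% of all tested). AT1G66100, the thionin gene, differed by -0.73 on sucrose (SE 0.12, limma adjusted p 0.03) and by -1.05 in its response (SE 0.16, adjusted p 0.0409). Since 2 of its 3 acn1-2 sucrose arrays were raised to the floor, both values and their SE depend on the floor, and the differences may be larger than given. AT5G35170, the plastid adenylate kinase family gene, differed by -0.59 on sucrose (SE 0.10, limma adjusted p 0.0405) and by -0.86 in its response (SE 0.14, adjusted p 0.0451). AT1G55960 differed by -0.74 and AT1G65230 by -0.72 on sucrose (limma adjusted p 0.0328 and 0.0384). On all arrays these 4 were at -0.46, -0.22, -0.41 and -0.18, and none was called. With the acn1-2 untreated replicate 3 left out as well, 6 were called lower on sucrose (0.458% of all tested) and 0 in the difference of responses (0.0944%).

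AT1G62510, the lipid-transfer family gene, was the single call on all arrays. With sucrose it had 43.6, 48.5 and 52.5 in acn1-2, against 72.9, 79.3 and 112 in Col-7, a log2 difference of -0.85 (SE 0.15, limma adjusted p 0.0493). Untreated it had 614, 575 and 699 in acn1-2, against 490.2, 466 and 564 in Col-7, a log2 difference of 0.31 (SE 0.15, adjusted p 0.371). The lines thus changed order between the media without overlap in either, and its response differed by -1.16 (SE 0.22, limma adjusted p 0.121). The call on sucrose lies at the edge of the threshold. It ended without Col-7 sucrose replicate 3 (-0.66, limma adjusted p 0.0636) and under 10 of the 12 omissions of an array, with adjusted p of 0.0329 to 0.302 over all 12. AT1G54740, which has no role given, pointed the other way, with 57.3, 54.6 and 59.2 in acn1-2 with sucrose, against 45.4, 41.1 and 41.4 in Col-7 with sucrose. Its groups did not overlap on sucrose, and the log2 difference of 0.42 was not called (SE 0.11, limma adjusted p 0.323). With array weights it was called, at 0.40 (SE 0.08, limma adjusted p 0.0283).

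**Figure D5:**
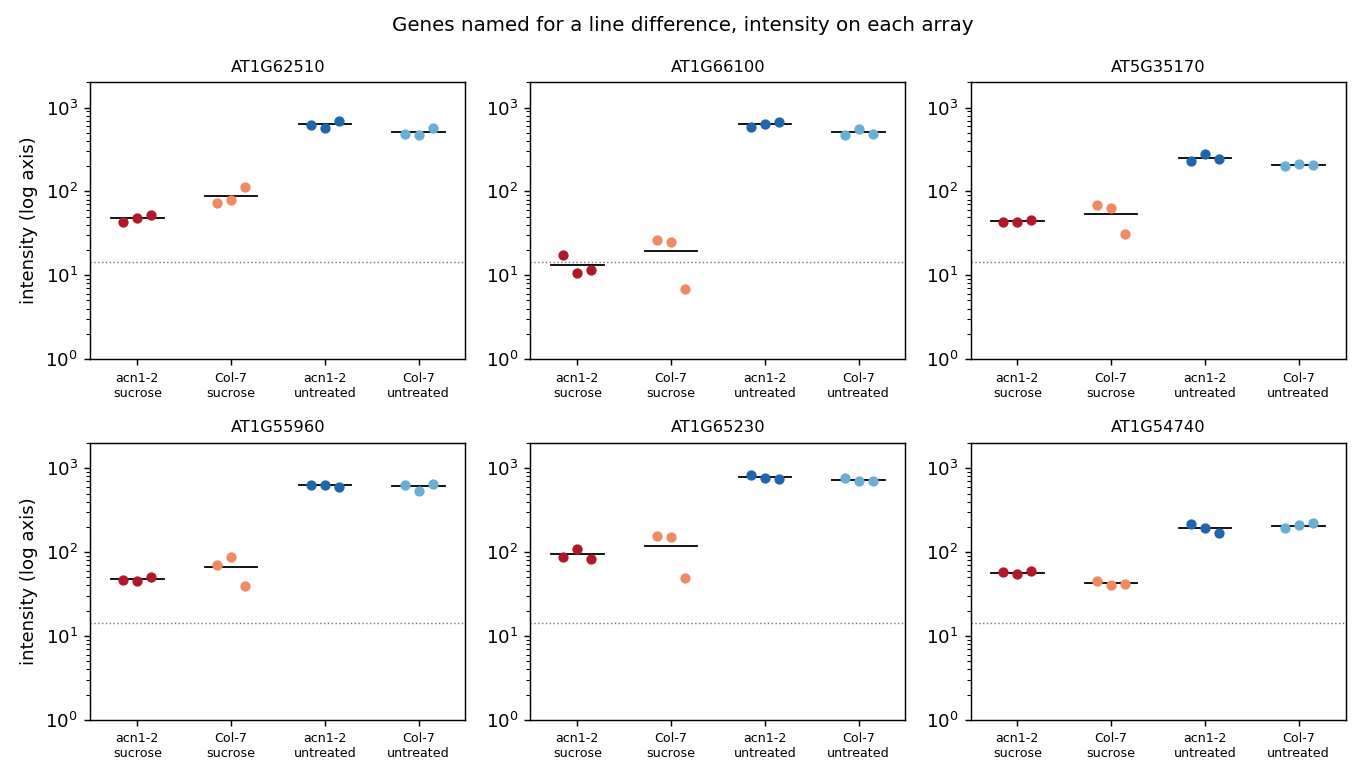
Intensity on a log axis on each array for 6 genes named for a line difference on sucrose; points are the replicates in order 1 to 3 from left to right, bars are means, and the dotted line is the floor of 14.4. AT1G62510 is lower in all 3 acn1-2 sucrose arrays than in all 3 of Col-7, AT1G54740 is higher, and the other 4 genes overlap through Col-7 sucrose replicate 3.

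The arrays of the lines were also compared by whether they overlapped. With sucrose, 6 of the 88 probe sets (6.82%) were higher on all 3 acn1-2 arrays than on all 3 Col-7 arrays and 3 (3.41%) were lower, against 7.13% and 7.11% of all tested. These counts used intensities without the floor. AT3G16220, under the floor on every sucrose array, is among the 6 higher. Untreated, 20 (22.7%) were higher on all acn1-2 arrays and 4 (4.55%) were lower, against 9.95% and 7.99%. The untreated differences were small, with the median of 0.10 given above and a highest value of 0.55 on the log2 scale, and none of them was called.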

How the data were processed

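Total RNA of whole seedlings was hybridised to 12 one-colour ATH1 arrays. The deposited table gives 1 linear intensity per probe set and array, which the authors had scaled to a 2% trimmed mean of about 100.0, as the values show; the sources used here do not name the summarising software. The table has 22810 probe sets. The 64 controls were left out, a floor was set at the 25th percentile of all values (14.4), and log2 was taken with no further normalization. Probe sets with a mean of at least the pooled 40th percentile (29.1) were tested, which kept 13764 and all 88 probe sets of the set. One group-means model of the 12 arrays was fitted with limma 3.58.1 in R 4.3.3 (8 residual degrees of freedom, eBayes without trend or robust estimate, two-sided, Benjamini-Hochberg over all tested probe sets, adjusted p under 0.05 called). Folds with sucrose are ratios of geometric means of floored intensities. The number of arrays limits the precision, with a median SE of 0.16 for a line difference and 0.22 for the interaction over the set. On simulated data the interaction fit recovered 70% of 100 probe sets changed by 1 log2 unit and 5% of 100 changed by 0.5, and called 3 of 13564 unchanged ones. The simulation held 13764 probe sets, as many as were tested, and not the set alone. Over all tested probe sets the median SE of the interaction was 0.19, so recovery within the set may be lower. The members, lists and functional groups were chosen with earlier results of these data known. Named genes were those called in a line comparison, the 24 with the largest ratio, up to 4 per functional group and those at the thresholds; the others were added by group after their values were seen. Replicate numbers were not used as pairs in the main fit. Correlations of same-numbered deviations were weak, from -0.10 to 0.14, which cannot show whether such arrays were grown or processed together. Probe sets and genes were joined by the platform annotation and by the RefSeq gene table. A search of promoters for motifs was planned and not run, as no sequence was used here. Alternatives were other normalizations, filters and floors, moderation with trend and robust estimates, a replicate block, scanner background as a covariate, array weights, only the groups compared, and each array left out. Figures were drawn with matplotlib 3.10.9.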

Additional observations from a re-analysis of the deposited data

How the results depend on the processing

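Each line difference with an unadjusted limma p under 0.05 on all arrays kept its direction under every setting run. Those of AT5G35170, AT1G55960 and AT1G65230, called when an array was left out, were not followed across the settings. The direction in AT1G65230 depends on which Col-7 sucrose arrays are kept. The size of the difference in AT5G35170 does too. Its Col-7 sucrose values were 68.8, 63.9 and 30.6, and the last lay below all its acn1-2 sucrose values. The counts of calls moved, and the median on sucrose changed sign without Col-7 sucrose replicate 1. With sucrose the count of 1 became 0 with quantile normalization, median centring, no filter, a stricter filter, no floor, a pseudocount added instead, scanner background as a covariate, or only the sucrose groups, 6 without replicate 3 of both Col-7 with sucrose and untreated acn1-2, and 9 with array weights (8 lower and 1 higher, AT1G54740; 1.19% of all tested were called). Under these settings the adjusted p of AT1G62510 (limma) ran from 0.00443 with array weights to 0.231 with no filter. In the difference of responses the count of 0 became 1, AT1G62510, with trend and robust moderation (limma adjusted p 0.042), with array weights (0.0338) and with the replicate block (0.0364). Whether the replicate numbers pair the arrays is not known. The block left the counts of 0 untreated and 1 with sucrose as they were. Leaving out each array in turn gave 0 to 2 in the difference of responses, 0 to 0 untreated and 0 to 4 with sucrose. The medians ran from -0.28 to -0.04, from 0.09 to 0.11 and from -0.21 to 0.05 in the same order, with the extremes of the first and the last without Col-7 sucrose replicate 3 and replicate 1. The cause of these changes was not tested. Signal limits the deepest differences, since 12 of the 88 probe sets had at least 1 sucrose array at the floor.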
